A study of Mus musculus with 14 samples.

Results

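Primary bone marrow-derived macrophages (pBMDMs) were examined for 27 genes of cholesterol synthesis and of the SREBP2 pathway, which controls it. Of the 20 enzymes, 19 had a lower fitted level after 24 h in supernatant of ferroptotic cells than in that of untreated cells. The thresholds for a call were passed by 7 of them, where 0.763% of all tested genes were called lower. In fresh medium 19 also had a lower fitted level, and 15 were called, where 4.1% of all tested genes were called lower. In either comparison 49.2% of all tested genes had a lower fitted level. The 27 genes were selected by name from the 55414 genes of the count table: 20 enzymes, 6 regulators of SREBP2 processing and the sterol carrier Stard4. They were chosen from a series whose differences between ferroptotic and untreated supernatant, and between fresh medium and untreated supernatant, were already known, so that these 2 comparisons are given as a description. No p is printed for them, and their counts of called genes describe how the genes were chosen and are not a test. All 27 genes passed the filter on low counts, among 12851 genes tested.

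The pBMDMs were wildtype cells of C57BL/6N mice 6 to 9 weeks old, grown with M-CSF, and 5 groups of them were exposed for 24 h to different media. Media of 4 groups came from Pfa1 mouse embryonic fibroblasts (MEFs), an established line in which 4-hydroxytamoxifen (4OHT) deletes the lipid peroxide-reducing enzyme GPX4 and so causes ferroptosis, an iron-dependent death driven by lipid peroxidation. These were supernatant of untreated Pfa1 MEFs (ctrl, 3 samples), of Pfa1 MEFs given 4OHT (4OHT, the ferroptotic supernatant, named Tam in the sample titles, 3 samples), of Pfa1 MEFs given 4OHT with the ferroptosis inhibitor Ferrostatin-1 (4OHT+Fer1, 3 samples) and of Pfa1 MEFs given Ferrostatin-1 without 4OHT (Fer1, 3 samples). The last group received fresh medium without any contact to MEFs (medium, 2 samples). All supernatants came from the same MEF line, any 4OHT or Ferrostatin-1 left in a supernatant reached the macrophages with it. Replicate numbers were read from the sample titles and taken to be the mouse that supplied the marrow, which the titles do not state. If they are not, p-values measure only the spread between these samples.

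Cholesterol is built from acetyl-CoA through mevalonate, isoprenoid diphosphates, squalene and lanosterol, and most enzymes of the route are encoded by targets of the transcription factor SREBP2. SREBP2 is made as an inactive membrane protein and is held in the endoplasmic reticulum by SCAP and the INSIG proteins while membrane sterol is plentiful. When sterol falls, SCAP escorts it to the Golgi apparatus, where the site-1 and site-2 proteases release the active factor. Macrophages also take up sterol from lipoproteins and dying cells, and sterol taken up in this way lowers SREBP2 activity.

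SREBP2 acts on promoters together with NF-Y, which binds the letters CCAAT, and Sp1, which binds the letters GGGCGG. Promoter windows of 300 bases, from 250 before to 50 after the RefSeq gene start (GRCm38.p6), matched 23 of the 27 genes by symbol and were searched on both strands. The sterol response element letters TCACNCCAC were found in 1 of the 23 (4.35%), against 1.37% of tested genes and 1.44% of all genes with a window, and in 1.24% of all windows. That gene was Hmgcs1, and the match lay 137 to 129 bases before the start. The stretch is shown because it holds the only such match, written in capitals.

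Hmgcs1, chr13:119690169-119690268, plus strand, 182 to 83 bases before the start: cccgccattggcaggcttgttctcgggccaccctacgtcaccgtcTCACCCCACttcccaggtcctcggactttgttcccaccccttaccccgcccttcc

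CCAAT or its reverse was found in 19 of the 23 genes (82.6%), against 43.5% of tested genes and 41.1% of all genes with a window. GGGCGG or its reverse was found in 20 of the 23 (87%), against 68.4% of tested genes and 38.2% of all genes. The 4 stretches below are from genes lower in pBMDMs exposed to ferroptotic supernatant, 3 of them with the NF-Y letters in capitals and Acat2 without any. Each covers 170 bases that lie upstream of both the RefSeq and the GENCODE start of its gene.
Insig1, chr5:28071193-28071362, plus strand: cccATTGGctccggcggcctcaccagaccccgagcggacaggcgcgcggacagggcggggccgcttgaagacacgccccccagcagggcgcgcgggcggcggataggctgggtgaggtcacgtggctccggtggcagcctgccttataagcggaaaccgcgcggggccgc
Lss, chr10:76531418-76531587, plus strand: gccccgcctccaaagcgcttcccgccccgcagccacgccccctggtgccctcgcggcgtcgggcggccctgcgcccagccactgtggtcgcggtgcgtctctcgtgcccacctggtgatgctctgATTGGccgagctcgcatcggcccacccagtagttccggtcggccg
Nsdhl, chrX:72918351-72918520, plus strand: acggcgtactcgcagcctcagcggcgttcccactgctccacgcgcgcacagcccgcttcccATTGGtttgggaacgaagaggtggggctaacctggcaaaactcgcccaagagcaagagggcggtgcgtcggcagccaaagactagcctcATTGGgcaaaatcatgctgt
Acat2, chr17:12960748-12960917, minus strand: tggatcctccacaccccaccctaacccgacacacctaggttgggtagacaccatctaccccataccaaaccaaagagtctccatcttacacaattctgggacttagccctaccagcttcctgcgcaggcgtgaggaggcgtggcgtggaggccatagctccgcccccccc
The genes without the NF-Y letters in the window were Acat2, Scap, Mbtps1 and Mbtps2. A match is a description of the letters and not a binding site, and no match says only that the letters are not in this window.

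The libraries were made with QuantSeq, which reads transcripts from their 3′ end, and a count then does not scale with gene length. The authors deposited estimated counts per gene without normalization. Total counts lay between 7823051 and 11052352 per sample, at which 3 counts correspond to between 0.271 and 0.383 CPM, counts relative to the library size after scaling by TMM factors. All 6 macrophage marker genes examined were tested, with a summed level of 4300 to 4970 CPM in ctrl, 5010 to 6880 in Fer1, 4010 to 7490 in 4OHT+Fer1, 6250 to 7500 in 4OHT and 6830 to 8340 in medium. Of 8 fibroblast markers, 4 had enough counts to be tested, and the summed level of all 8 was 18.4 to 50.1 CPM in ctrl, 19.3 to 121 in Fer1, 15.5 to 93.8 in 4OHT+Fer1, 15.6 to 49.0 in 4OHT and 33.5 to 103 in medium. Markers of neutrophils and their precursors summed to 34.3 to 47.2 CPM in medium and to at most 25.3 CPM elsewhere, with 2 of the 6 at 0 in all samples. Markers of dendritic cells summed to at most 1.19 CPM and those of B and T cells to at most 0.531 CPM in any sample. The part of these markers in the results was not tested, and in bulk RNA fewer cells of a type and less RNA per cell cannot be told apart.

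The summed level of the 27 genes was highest in ctrl and Fer1, lower in 4OHT+Fer1, lower again in 4OHT and lowest in medium. In replicates 1, 2 and 3 the sum was 1600, 1570 and 925 CPM in ctrl, 1590, 1460 and 1000 CPM in Fer1, 1230, 1280 and 748 CPM in 4OHT+Fer1 and 1030, 947 and 634 CPM in 4OHT, and in replicates 1 and 2 it was 731 and 622 CPM in medium. Within replicate numbers, 4OHT held 64.2%, 60.2% and 68.5% of the ctrl sum, 4OHT+Fer1 held 77.0%, 81.3% and 80.9%, and Fer1 held 99.5%, 93.0% and 108%. Fresh medium held 45.6% and 39.6% of it. The order ctrl, 4OHT+Fer1, 4OHT held in each of the 3 replicates, whereas the groups overlapped when replicates were pooled, because every replicate 3 sample was low.

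**Figure D1:**
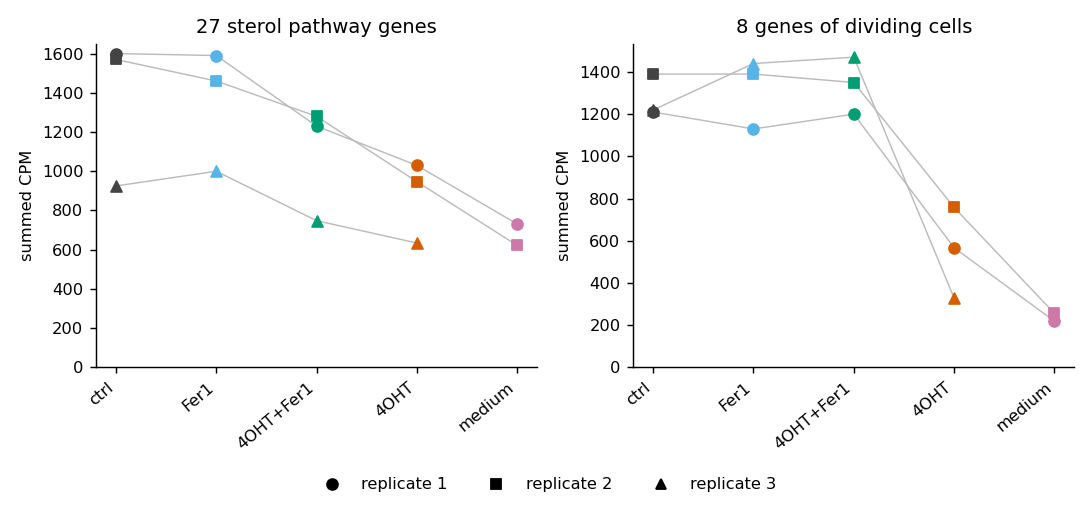
Summed level in CPM (y axes, linear from 0) of the 27 sterol pathway genes (left) and of 8 genes of dividing cells (right) in each of the 14 samples, by group (x axis). Grey lines join samples of 1 replicate number. The sterol genes stepped down from ctrl to 4OHT+Fer1 to 4OHT within each replicate, while the genes of dividing cells in 4OHT+Fer1 (1200 to 1470 CPM) lay close to ctrl and Fer1 (1130 to 1440 CPM).

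Replicate 3 stood apart for these genes in every supernatant. Of the 27 genes, 17 were lowest in replicate 3 in each of the 4 supernatants, a pattern that 7.61% of all tested genes had, and 0 were highest in replicate 3 in each of them. The 17 were 15 enzymes, Insig1 and Stard4. There was no replicate 3 of fresh medium. The model held the replicate number as a block, so that groups were compared within it.

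In pBMDMs exposed to ferroptotic supernatant, 24 of the 27 genes had a lower fitted level than in ctrl, with a median log2 fold change of -0.81 against 0.01 over all tested genes. At a log2 fold change beyond 1 and an adjusted p under 0.05, 8 genes were called lower and 0 higher, where 0.763% of all tested genes were called lower. The 8 were Idi1, Lss, Acat2, Sqle, Fdps, Insig1, Cyp51 and Nsdhl. By the adjusted p alone 12 genes were lower, where 1.01% of all tested genes were, the others being Hmgcs1, Msmo1, Sc5d and Stard4. The genes just inside the fold threshold were Cyp51 and Nsdhl, both at -1.02, and just outside it lay Stard4 at -0.96, while Fdft1, also at -1.02, missed the adjusted p. All ctrl samples lay above all 4OHT samples for 5 genes, where this held for 5.84% of all tested genes. A lower level in 4OHT in every replicate was seen for 17 genes, against 14.4% of all tested genes. DESeq2 also called 8. Without the replicate block, edgeR called 0 of the 27 genes at the same thresholds, where 0.0467% of all tested genes were called. With or without the block, 14 of the 27 had an unadjusted p under 0.05, where 10.8% of all tested genes had one with it. Also 0 were called without replicate 1, without replicate 2 or with only the ctrl and 4OHT samples in the model. Of all tested genes, 0.0156%, 0% and 0% were called in these settings. With so few calls over all genes, the 0 does not tell the 27 genes apart from the rest.

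The steps to mevalonate and its diphosphate had 5 genes. Acat2, which encodes a cytosolic acetoacetyl-CoA thiolase at the entry to the route, had 47.3, 44.3 and 11.9 CPM in ctrl, 43.5, 44.0 and 14.8 in Fer1, 24.9, 35.6 and 12.2 in 4OHT+Fer1, 15.4, 13.7 and 4.94 in 4OHT, each in replicates 1, 2 and 3, and 7.62 and 5.01 CPM in replicates 1 and 2 of medium. The replicate 3 ctrl sample lay below 2 of the 4OHT samples, but 4OHT was lower than ctrl within each replicate. Against ctrl the log2 fold change was -1.55 ± 0.21 (SE) in 4OHT and -2.77 ± 0.26 in medium. Hmgcs1, the synthase that makes HMG-CoA, ranged from 84.0 to 187 CPM in ctrl, from 55.8 to 97.6 in 4OHT and from 50.7 to 57.1 in medium, with log2 fold changes against ctrl of -0.82 ± 0.14 in 4OHT and -1.71 ± 0.16 in medium. The later 3 enzymes moved less in 4OHT. Mvk and Pmvk, the kinases that phosphorylate mevalonate, were at -0.61 ± 0.36 and -0.28 ± 0.33, and Mvd, the decarboxylase that yields isopentenyl diphosphate, was at -0.60 ± 0.39. In medium Pmvk and Mvd were called lower, at -1.39 ± 0.40 and -2.04 ± 0.47, and Mvk was not.

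The isoprenoid steps held the gene with the largest difference. Idi1, the isomerase that interconverts the 5-carbon diphosphates, had 12.9, 14 and 11.6 CPM in ctrl, 10.7, 9.07 and 3.63 in Fer1, 6.69, 6.69 and 2.66 in 4OHT+Fer1, 2.84, 7.34 and 1.90 in 4OHT, and 2.41 and 2.00 in medium. All samples of the other 4 groups lay below all ctrl samples, those of Fer1 included. The log2 fold change against ctrl was -1.81 ± 0.36 in 4OHT and -2.90 ± 0.45 in medium. Idi1 had the fewest counts of the 27 genes, and reads may have been split with its pseudogene copies, of which Idi1-ps1 had 328 counts over all samples against 912 for Idi1. Fdps, which joins these units into farnesyl diphosphate, had 148, 130 and 41.5 CPM in ctrl, 143, 135 and 55.3 in Fer1, 103, 113 and 31.1 in 4OHT+Fer1, 54.8, 45.6 and 23.9 in 4OHT, and 26.2 and 18.5 in medium. Fdps overlapped the predicted gene Gm43738 on the same strand, so its count is uncertain to the extent that reads were shared. Its log2 fold change against ctrl was -1.25 ± 0.18 in 4OHT and -2.57 ± 0.23 in medium. Ggps1, which makes geranylgeranyl diphosphate for protein prenylation rather than for sterols, moved little, with -0.29 ± 0.15 in 4OHT and -0.06 ± 0.17 in medium.

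The 3 genes from farnesyl diphosphate to lanosterol were lower in 4OHT by more than the median of the 27. Fdft1, squalene synthase, had 26.3, 33.9 and 7.84 CPM in ctrl, 30.2, 24.4 and 18.2 in Fer1, 13.4, 21.2 and 10.6 in 4OHT+Fer1, 11.6, 14.8 and 5.44 in 4OHT, and 9.02 and 3.45 in medium. The spread between its replicates was wide, and its log2 fold change in 4OHT was -1.02 ± 0.36. Fdft1 overlaps Ctsb on the opposite strand, which had 760211 counts over all samples against 2221 for Fdft1. Cyp51 and Ggps1 also overlap a gene on the opposite strand, Akap9 (21959 counts against 9200) and Arid4b (33961 against 6400). Whether counting used the strand is not given in the sources used here. Sqle, squalene epoxidase, had 39.9, 35.5 and 19.5 CPM in ctrl, 37.0, 39.6 and 14.2 in Fer1, 33.7, 26.9 and 6.76 in 4OHT+Fer1, 20.3, 13.7 and 6.45 in 4OHT, and 8.64 and 4.23 in medium. Its log2 fold change against ctrl was -1.33 ± 0.25 in 4OHT and -2.77 ± 0.32 in medium. Lss, the cyclase that forms lanosterol, had 27.9, 31.4 and 22.4 CPM in ctrl, 30.8, 28.9 and 9.69 in Fer1, 27.6, 10.6 and 5.63 in 4OHT+Fer1, 16.3, 10.3 and 2.78 in 4OHT, and 7.87 and 6.56 in medium. All 4OHT samples of Lss lay below all ctrl samples, and its log2 fold change was -1.77 ± 0.36 in 4OHT and -2.44 ± 0.44 in medium.

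The 9 enzymes after lanosterol had log2 fold changes from -1.02 to 0.46 in 4OHT and from -2.01 to 0.58 in medium. Cyp51, the lanosterol demethylase, had 132, 108 and 45.5 CPM in ctrl, 121, 98.4 and 62.2 in Fer1, 82.9, 84.3 and 33.4 in 4OHT+Fer1, 58.1, 47.0 and 28.9 in 4OHT, and 33.5 and 22.9 in medium. Nsdhl, a sterol dehydrogenase of the C4 demethylation complex, had 40.3, 34.1 and 16.8 CPM in ctrl, 39.7, 31.0 and 16.5 in Fer1, 29.9, 29.1 and 15.6 in 4OHT+Fer1, 20.3, 13.4 and 10.3 in 4OHT, and 12.6 and 8.45 in medium. Both were lower in 4OHT than in ctrl within each replicate, with the replicate 3 ctrl sample inside the range of the 4OHT samples. Hsd17b7, a ketosteroid reductase of the same complex, had 26.1, 23.8 and 11.5 CPM in ctrl, 21.5, 25.9 and 13.3 in Fer1, 21, 19.3 and 7.06 in 4OHT+Fer1, 15.1, 10.6 and 6.83 in 4OHT, and 5.97 and 6.90 in medium. Sc5d, which adds the C5 double bond, had 62.1, 53.2 and 41.2 CPM in ctrl, 54.3, 60.1 and 37.8 in Fer1, 63.8, 36.4 and 24.5 in 4OHT+Fer1, 33.4, 28.5 and 21.9 in 4OHT, and 18.2 and 18.7 in medium. The ctrl and 4OHT samples of Sc5d did not overlap. Msmo1, the C4 methylsterol oxidase, was at -0.81 ± 0.13 in 4OHT and -1.71 ± 0.16 in medium, and Dhcr7, the reductase of the last step to cholesterol, at -0.46 ± 0.22 and -1.45 ± 0.27.

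The enzymes that moved least in 4OHT were Lbr and Ebp. Lbr, a sterol reductase that also anchors chromatin at the nuclear envelope, had 80.5, 89.3 and 81.7 CPM in ctrl, 83.1, 85.7 and 75.3 in Fer1, 100, 95.4 and 76.1 in 4OHT+Fer1, 99.1, 80.5 and 43.0 in 4OHT, and 68.6 and 65.3 in medium. Ebp, a sterol isomerase, had 95.9, 80.8 and 69.8 CPM in ctrl, 86.2, 85.4 and 74.1 in Fer1, 94.3, 71.7 and 70.6 in 4OHT+Fer1, 82.6, 63.5 and 58.5 in 4OHT, and 65.3 and 58.7 in medium. Both overlapped between ctrl and 4OHT, and in medium they were at -0.46 ± 0.23 and -0.49 ± 0.15. Tm7sf2, which encodes a reductase of the same activity as Lbr, was the enzyme with the higher fitted level in 4OHT and medium, at 0.46 ± 0.52 and 0.58 ± 0.58. Its ctrl samples ranged from 15.1 to 49.0 CPM and it overlaps Vps51 on the same strand, so its count is uncertain.

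**Figure D2:**
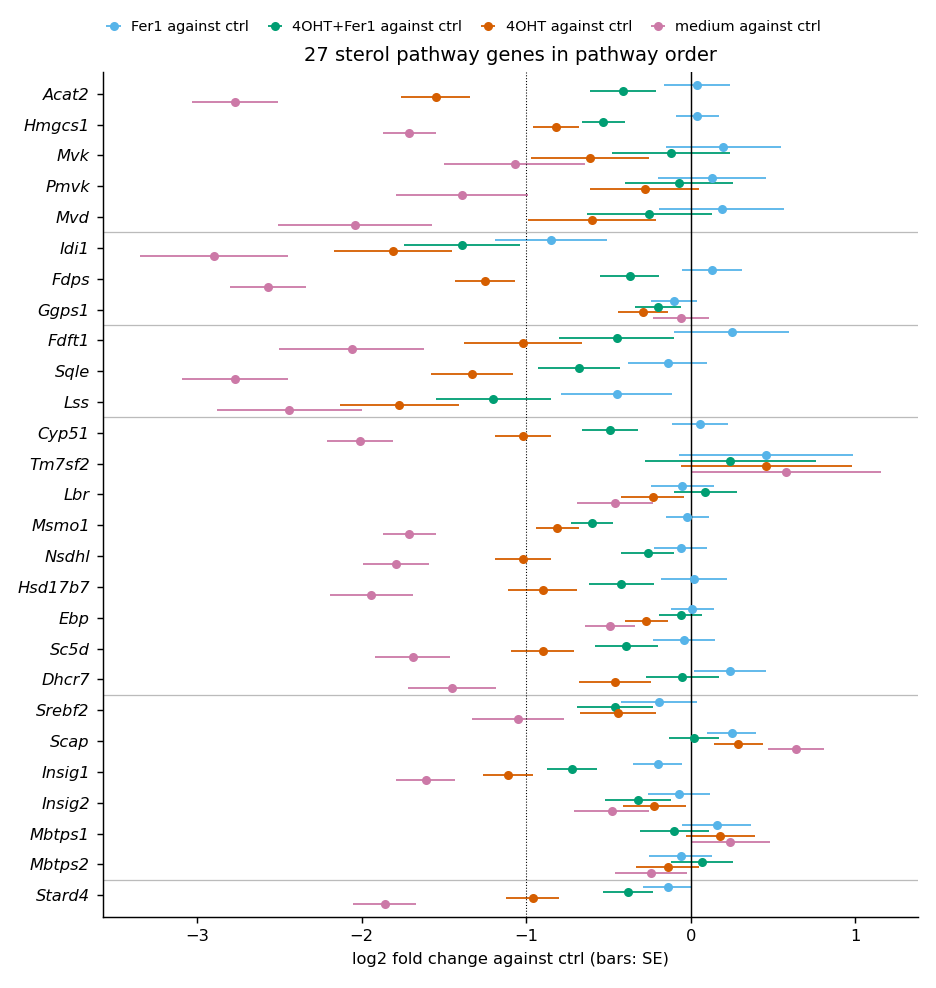
Log2 fold change against ctrl (x axis, bars are SE) of each of the 27 genes (y axis) in pathway order, in Fer1, 4OHT+Fer1, 4OHT and medium. Grey lines separate, from the top, the mevalonate, isoprenoid, squalene and later sterol enzymes, the SREBP2 regulators and Stard4, and the dotted line marks a log2 fold change of -1. Medium lay furthest from ctrl for most enzymes, with 4OHT between medium and 4OHT+Fer1, while Ggps1, Tm7sf2, Lbr, Ebp, Scap, Insig2, Mbtps1 and Mbtps2 stayed within 0.64 of ctrl.

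Among the regulators, Insig1 and Srebf2 behaved unlike the escort protein and the proteases. Insig1, itself a target of SREBP2 and the protein that retains it, had 83.7, 81.9 and 49.5 CPM in ctrl, 79.7, 80.3 and 35.7 in Fer1, 58.8, 55.9 and 23 in 4OHT+Fer1, 40.5, 45.6 and 18.2 in 4OHT, and 28.3 and 31.0 in medium. The 4OHT and ctrl samples did not overlap, and the log2 fold change was -1.11 ± 0.15 in 4OHT and -1.61 ± 0.18 in medium. Insig2, the second retention protein, had 20.8, 19.7 and 28.2 CPM in ctrl, 23.2, 21.9 and 20 in Fer1, 22.1, 15.5 and 17.4 in 4OHT+Fer1, 18.4, 22.2 and 18.1 in 4OHT, and 17 and 15.6 in medium, with -0.22 ± 0.19 in 4OHT and -0.48 ± 0.23 in medium. Srebf2, which encodes SREBP2, had 66.3, 79.9 and 70.9 CPM in ctrl, 86.7, 64.1 and 48.8 in Fer1, 79.4, 44.1 and 43.2 in 4OHT+Fer1, 80.9, 60.9 and 31.1 in 4OHT, and 45.7 and 36.5 in medium. Its 4OHT samples spanned the ctrl samples (-0.44 ± 0.23), whereas both medium samples lay below all of ctrl (-1.05 ± 0.28).

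Scap, the escort protein, had the largest positive log2 fold change of the regulators in medium. Its levels were 24.6, 28.6 and 25.5 CPM in ctrl, 32.2, 29.3 and 32.4 in Fer1, 22.9, 27.1 and 30.1 in 4OHT+Fer1, 34.6, 31.3 and 30.1 in 4OHT, and 39.1 and 41.7 in medium. Both medium samples exceeded all other samples, and the log2 fold change against ctrl was 0.64 ± 0.17 in medium and 0.29 ± 0.15 in 4OHT. Mbtps1, the site-1 protease, had 26.5, 39.1 and 25.3 CPM in ctrl, 31.6, 28.4 and 41.3 in Fer1, 23.6, 28.5 and 32.6 in 4OHT+Fer1, 37.6, 34.8 and 29.7 in 4OHT, and 35.4 and 35.0 in medium. Mbtps2, the site-2 protease, had 24.3, 27.7 and 25.2 CPM in ctrl, 25.5, 28.5 and 20.9 in Fer1, 36.9, 23.4 and 22.5 in 4OHT+Fer1, 28.6, 24.6 and 18.2 in 4OHT, and 23.6 and 23.6 in medium. Both proteases overlapped between ctrl and 4OHT, with log2 fold changes of 0.18 ± 0.21 and -0.14 ± 0.19. Stard4, a soluble carrier that moves sterol between membranes, had 54.8, 51.4 and 32.8 CPM in ctrl, 44.1, 48.5 and 32.4 in Fer1, 32.3, 47.5 and 26.6 in 4OHT+Fer1, 27.8, 28.4 and 15.7 in 4OHT, and 14.2 and 14.7 in medium. All 4OHT samples of Stard4 lay below all ctrl samples, at -0.96 ± 0.16, and medium was at -1.86 ± 0.19.

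**Figure D3:**
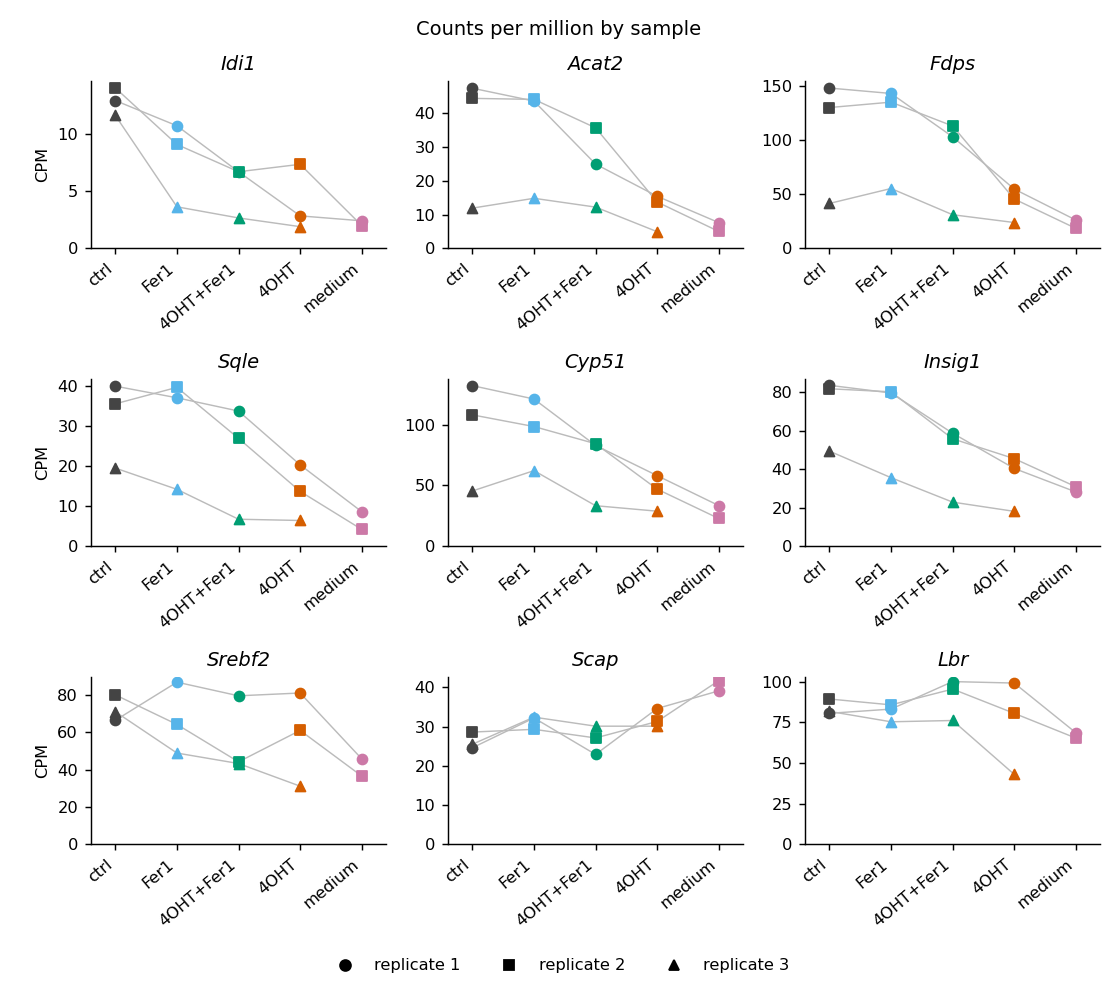
CPM (y axes, linear from 0) of 9 of the genes in each of the 14 samples by group (x axis), with grey lines joining samples of 1 replicate number. Idi1, Acat2, Fdps, Sqle, Cyp51 and Insig1 were lower in 4OHT than in ctrl in each replicate, and lower again in medium in replicates 1 and 2. In each of the 4 supernatants, replicate 3 was their lowest sample. Srebf2 and Lbr overlapped between ctrl and 4OHT, and Scap was highest in medium.

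Fresh medium differed from ctrl for more of the genes than ferroptotic supernatant did. Of the 27 genes, 18 were called lower in medium and 0 higher, where 4.1% of all tested genes were called lower, with a median log2 fold change of -1.69. Both medium samples lay below all ctrl samples for 19 genes, against 17.4% of all tested genes. Enzymes made up 15 of the 18, and the others were Srebf2, Insig1 and Stard4. Without the replicate block, 3 genes were called, and without replicate 2, which leaves 1 medium sample assumed to vary like the other groups, 1 gene was.

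Ferroptotic supernatant stood between medium and ctrl. Against medium, 4 genes were higher in 4OHT and 0 lower, where 1.42% of all tested genes were higher, and the median log2 fold change was 0.79. The 4 were Sqle (log2 fold change 1.45 ± 0.31), Fdps (1.32 ± 0.22), Acat2 (1.22 ± 0.26) and Hsd17b7 (1.04 ± 0.25). Hmgcs1, Msmo1, Cyp51 and Stard4 passed the adjusted p but not the fold, at 0.89, 0.90, 0.99 and 0.90. This comparison is the difference of the 2 that were known when the genes were chosen, so it too is a description. DESeq2 called 5 genes. Without the replicate block 0 were called by edgeR and 2 had an unadjusted p under 0.05, and without replicate 1 or without replicate 2 the number called was also 0.

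The comparison of 4OHT with 4OHT+Fer1 asks how far the lower levels depended on the death that Ferrostatin-1 prevents. Of the 27 genes, 22 had a lower fitted level in 4OHT, with a median log2 fold change of -0.39, and 17 were lower in every replicate, against 14.2% of all tested genes. By edgeR, 1 gene passed both thresholds, where 0.731% of all tested genes were called lower. That gene was Acat2 (log2 fold change -1.14 ± 0.21, 95% interval -1.60 to -0.68, adjusted p = 0.0274), and it was called in 7 of the 12 settings run. Fdps had an adjusted p of 0.0376 with a log2 fold change of -0.88 ± 0.18, below the fold threshold, and Nsdhl had -0.76 ± 0.17 with an adjusted p of 0.0512. Stard4 and Sqle followed with -0.58 ± 0.16 and -0.64 ± 0.25 (adjusted p = 0.118 and 0.327 by edgeR). Msmo1 was at -0.21 ± 0.13 (95% interval -0.50 to 0.07) and Hmgcs1 at -0.29 ± 0.14. Srebf2, Insig2, Scap and Mbtps1 had fitted values of 0.02, 0.11, 0.27 and 0.28. DESeq2 also called 1 gene. Without the replicate block the number was 0, where 0.14% of all tested genes were called, with 0 at an unadjusted p under 0.05. Without replicate 1 or replicate 2 the number was also 0, where 0% of all tested genes were called. The 4OHT samples are shared with the comparison that chose the genes, so these counts and p-values are a description and not an independent test.

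A comparison of 4OHT+Fer1 with Fer1 uses neither the ctrl, the 4OHT nor the medium samples, and asks what 4OHT and loss of GPX4 in the MEFs did while Ferrostatin-1 was present. In it 25 of the 27 genes had a lower fitted level in 4OHT+Fer1, where 48.2% of all tested genes were lower, and the median log2 fold change was -0.31. Of the 27, 16 were lower in every replicate, against 11.9% of all tested genes. By edgeR 0 of the 27 were called, as were 0 by DESeq2, where 0.0233% of all tested genes were called lower. At an unadjusted p under 0.05 there were 7 genes, where 2.07% of all tested genes had such a p, and the 7 were Msmo1, Hmgcs1, Cyp51, Insig1, Fdps, Acat2 and Sqle. Without the replicate block, 0 of the 27 genes had such a p in this comparison. Msmo1 had the smallest adjusted p, 0.887 by edgeR, with a log2 fold change of -0.58 ± 0.13 (95% interval -0.86 to -0.30), followed by Hmgcs1 with -0.57 ± 0.13 (-0.86 to -0.27) and Insig1 with -0.53 ± 0.15 (-0.85 to -0.20). Nsdhl was at -0.19 ± 0.17 and Stard4 at -0.24 ± 0.15. The differences thus did not pass the test across all genes. The intervals of Msmo1, Hmgcs1 and Insig1 do not reach 0 before adjustment. These 3 genes were named for having the smallest p of the 27, so this follows from the choice and adds no support. Per replicate the median over the 27 genes was -0.45, -0.26 and -0.34 in log2 CPM. The genes were chosen with earlier results of these data known. Counts and p-values of this comparison are therefore a description and not an independent test.

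Set against ctrl, 4OHT+Fer1 gave a similar size of difference, in samples that are shared with both of the comparisons above. The ctrl samples also entered the comparisons with ferroptotic supernatant and with fresh medium that were known when the genes were chosen. A choice made in this way can favour genes that were high in ctrl. The counts against ctrl given here are therefore a description and not a test. In 4OHT+Fer1 a lower fitted level was seen for 23 genes, with a median log2 fold change of -0.37. In every replicate 12 genes were lower, against 8.3% of all tested genes. By edgeR and by DESeq2 0 genes were called, where 0.0311% of all tested genes were called lower, and 8 genes had an unadjusted p under 0.05 (1 without the replicate block), where 4.31% of all tested genes had one. Idi1, Lss and Insig1 lay furthest from ctrl, at -1.39 ± 0.35, -1.20 ± 0.35 and -0.72 ± 0.15. In Fer1 against ctrl the median was 0.01, and 13 of the 27 genes had a lower fitted level. In that comparison edgeR and DESeq2 called 0 genes, where 0% of all tested genes were called lower, and 1 gene had an unadjusted p under 0.05, where 1.14% of all tested genes had one. It was Idi1, at -0.85 ± 0.34 with an adjusted p of 1 by edgeR.

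Which fitted value lay further from 0, that of 4OHT against 4OHT+Fer1 or that of 4OHT+Fer1 against Fer1, differed between genes. These values do not add up to the difference between 4OHT and ctrl, which also contains that of Fer1 against ctrl. The value of Fer1 against ctrl was -0.45 in Lss and -0.85 in Idi1, with a median of 0.01 over the 27 genes. A difference between genes was not tested, and the genes named here are examples. In Acat2, Nsdhl, Fdps and Stard4 the larger value was that of 4OHT against 4OHT+Fer1, at -1.14, -0.76, -0.88 and -0.58, with -0.45, -0.19, -0.50 and -0.24 for 4OHT+Fer1 against Fer1. In Msmo1, Hmgcs1, Insig1 and Lss it was the other way round, with -0.21, -0.29, -0.39 and -0.57 for 4OHT against 4OHT+Fer1 and -0.58, -0.57, -0.53 and -0.74 for 4OHT+Fer1 against Fer1. The values of Insig1 (SE 0.15 for each) and Lss (SE 0.36 and 0.35) lay less than their SE apart. In the same order, Cyp51 had nearly equal values of -0.53 and -0.55, and Sqle had -0.64 and -0.55. The 4OHT+Fer1 samples enter both values with opposite sign, so a high or low 4OHT+Fer1 sample moves them apart. The test of whether Ferrostatin-1 changed the effect of 4OHT, (4OHT minus ctrl) minus (4OHT+Fer1 minus Fer1), called 0 of the 27 genes by edgeR and 0 by DESeq2, where 0.0233% of all tested genes were called lower. This test contains the comparison of 4OHT with ctrl from which the genes were chosen, so its values are a description. Relative to their SE, the largest interactions were those of Acat2 (-1.10 ± 0.29 on the log2 scale), Nsdhl (-0.83 ± 0.24) and Stard4 (-0.72 ± 0.22).

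**Figure D4:**
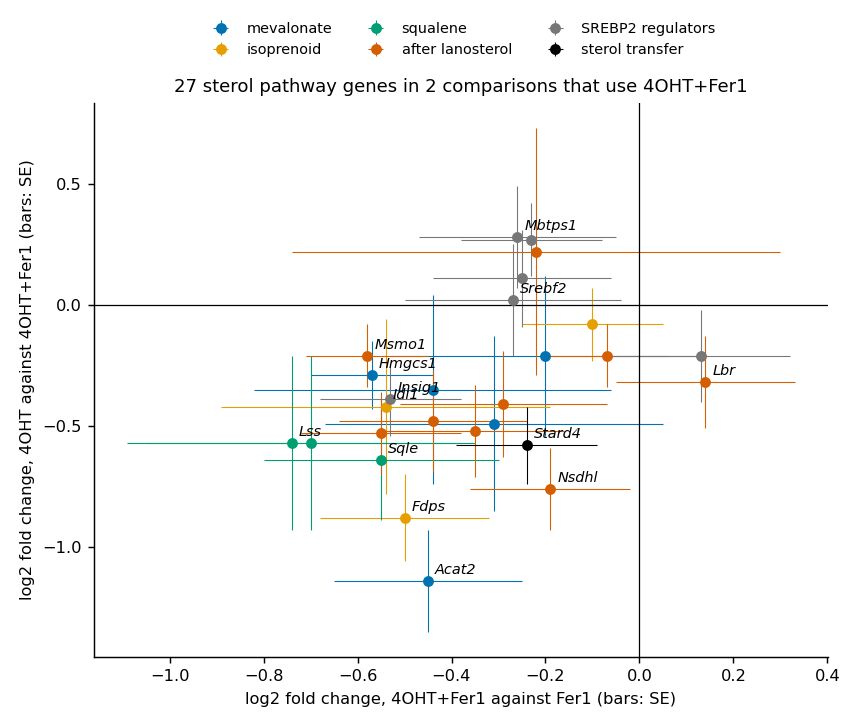
Log2 fold change of 4OHT+Fer1 against Fer1 (x axis) and of 4OHT against 4OHT+Fer1 (y axis) for each of the 27 genes, coloured by pathway step, with bars of SE on both axes. Most enzymes lay below 0 on both axes, Acat2 lowest on the y axis at -1.14, while Scap, Mbtps1, Insig2, Tm7sf2 and Srebf2 lay at or above 0 on it.

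Genes of neighbouring routes outside the 27 were called at about the share of all tested genes. A set of 5 lists with 39 genes covered the branches from prenyl diphosphates, sterol-regulated degradation at the endoplasmic reticulum, electron donors and partners of the sterol enzymes, sterol transport and storage, and the supply of acetyl-CoA, and all 39 were tested. In 4OHT against ctrl, 0 of the 39 were called by edgeR, near the share of 1.11% of all tested genes. The list medians lay between -0.24 and 0.09. In medium against ctrl, 2 of the 39 (5.13%) were called, both lower, a share near the 4.1% of all tested genes. These were Aacs, which makes acetoacetyl-CoA from ketone bodies (-1.75 ± 0.28), and Gramd1b, a sterol transfer protein between plasma membrane and endoplasmic reticulum (-1.19 ± 0.17). List medians there lay between -0.64 for electron donors and partners and 0.21 for degradation at the endoplasmic reticulum. Of the 7 electron donors and partners, Cyb5a (-0.93 ± 0.14) and Cyb5b (-0.74 ± 0.20) passed the adjusted p but not the fold. By the adjusted p alone, 5.28% of all tested genes were lower. Tmem97, at -1.53 ± 0.49, passed the fold but not the adjusted p. Aacs was at -0.83 ± 0.23 in 4OHT against ctrl and at -0.55 ± 0.23 in 4OHT+Fer1 against Fer1, without a call in either.

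Most genes of dividing cells were lower together with the sterol genes in 4OHT and in medium. By edgeR 0 of them were called in 4OHT+Fer1 against Fer1 or against ctrl. Of all tested genes, only 0.0233% and 0.0311% were called lower there, so the 0 is near that share. The summed level of the 8 such genes was 1210 to 1390 CPM in ctrl, 1130 to 1440 in Fer1, 1200 to 1470 in 4OHT+Fer1, 329 to 758 in 4OHT and 219 to 256 in medium. Of the 8, 3 were called lower in 4OHT against ctrl and 7 in medium against ctrl, where 0.763% and 4.1% of all tested genes were. Pcna was not called in medium against ctrl, at -0.27 ± 0.32. Within replicate numbers, 4OHT+Fer1 held 106%, 96.5% and 102% of the Fer1 sum of the dividing-cell genes, where it held 77.4%, 87.4% and 74.7% of the Fer1 sum of the 27 sterol genes. Between replicates of a supernatant the dividing-cell genes were not low in replicate 3 of ctrl, Fer1 or 4OHT+Fer1, in which the sterol genes were, whereas in 4OHT both sums were lowest in replicate 3, at 329 CPM against 567 and 758 CPM for the dividing-cell genes. The part of dividing cells in the lower levels of the sterol genes was not tested, in 4OHT, in medium, in 4OHT+Fer1 or in replicate 3.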

How the data were processed

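RNA of wildtype pBMDMs was sequenced from the 3′ end with QuantSeq after 24 h in 4 Pfa1 MEF supernatants (3 replicates each) or fresh medium (2 replicates). The authors aligned the reads with STAR 2.7.10a, quantified genes with Salmon 1.5.2 and deposited expected counts, which are estimated counts without normalization. The submitters' processing notes name both GRCh38 and GRCm38, and the identifiers are mouse genes. A deposited table of the authors' own comparisons, with fold changes and p-values, and its 14 per-sample CPM columns were not used.

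The deposited estimated counts were rounded (30109 values were not whole), scaled by TMM (factors 0.910 to 1.06) and tested by quasi-likelihood in edgeR 4.0.16 under R 4.3.3, with all 14 samples in 1 model of group and replicate number, since the methods have mouse ID in the design. filterByExpr with its minimum count of 10 kept 12851 of 55414 genes. A call required a log2 fold change beyond 1 in size and an adjusted p below 0.05 (Benjamini-Hochberg over all tested genes). Standard errors came from the F statistic together with the fold change, and differences within replicates used log2 CPM with a prior count of 2. Count limits cover counting error only. As a check of the pairing, deviations from the group mean were correlated over genes, which are not independent. The median r was 0.247 in 26 pairs sharing a replicate number (lowest 0.00221) and -0.139 in 52 other pairs. Deviations sum to 0 within a group, which ties the 2 medians to each other, so the negative one is not separate evidence. No 2 replicates were alike within sampling noise (chi-square per degree of freedom 10.9 to 79.4).

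The 27 genes and the lists were chosen with earlier results of these data known. Every sample was given for at most 12 genes called against ctrl in 4OHT or medium, those with the largest difference in 4OHT first, for the regulators and Stard4, and for the 2 enzymes that moved least in 4OHT. Motifs were counted in RefSeq promoter windows, where a gene with several windows counted once, and overlaps were read from GENCODE M21. The alternatives were no replicate block, RLE and upper-quartile scaling, DESeq2 1.42.0, no filter, a minimum count of 30, only the groups compared, each replicate left out, the adjusted p alone and pseudogene counts added. The scripts were tested on simulated data.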

Additional observations from a re-analysis of the deposited data

How the results depend on the processing

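Without the replicate block, 4OHT gave 0 called genes against ctrl, 0 against 4OHT+Fer1 and 0 against medium, and medium gave 3 against ctrl. Of all tested genes, 0.0467%, 0.14%, 0.755% and 3.56% were called in these fits. The medians of the last 2 comparisons were 0.60 and -1.47. With only the groups compared in the model, 0 were called for 4OHT whether set against ctrl or against 4OHT+Fer1. In those fits 0% and 0.358% of all tested genes were called. By the adjusted p alone, 2 were called in 4OHT against 4OHT+Fer1 and 8 in 4OHT against medium, and with no filter 7 in 4OHT against medium. With each replicate left out, the number called was 0 to 5 in 4OHT against ctrl (5 without replicate 3). It was 0 to 1 in 4OHT against 4OHT+Fer1, 0 to 3 in 4OHT against medium and 1 to 17 in medium against ctrl. The medians then lay between -0.46 and -0.29 in 4OHT+Fer1 against Fer1, -0.36 and -0.21 in 4OHT+Fer1 against ctrl, and 0.73 and 0.88 in 4OHT against medium. Leaving out a replicate also leaves fewer samples. For the other changes, the cause was not tested. No called gene changed sign in any setting, and 97 values of single genes lost a call while 9 gained it. Where counts are few, as for Idi1, depth limits the precision. The block changed the number of called genes in no other comparison.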
